A study of Mus musculus with 3 samples.

Results

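Blood cells of naive mice labelled Hom were compared with blood cells of naive mice labelled Het, to ask which differences in RNA were shared by all cell types of the blood and which were found in one. Cells kept numbered 1978 in Hom and 1716 in Het, together 3694 of the 5363 cells in the naive blood table. The whole series has 16328 deposited cells. Of the kept cells, 1702 Hom and 1549 Het cells were in the clusters compared below. A cell was kept if its barcode occurred in 1 cell table alone and at least a fraction of 0.5 of its hashtag counts were of its own table's hashtags. Barcodes also present in another table numbered 1601, and 68 more cells missed the hashtag limit. Each genotype was 1 hashed sample of 1 pooled library of 8 samples, so no difference below has a replicate, and no test was made over cells.

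Both samples were whole blood of female C57Bl/6 mice aged 2 to 3 months, drawn by cardiac puncture and lysed of red cells. They were stained with 35 antibody tags and sequenced with the 10x 3′ v3 chemistry. The labels list Cx3cr1+/-, Cx3cr1-/-, CCR2+/- and CCR2-/- mice but do not say which gene Hom and Het refer to in blood, nor how many mice each hashed blood sample held. Blood of 1 Hom and 1 Het sample of mice about 2 weeks after E0771 breast cancer cells had been injected into the carotid artery was read beside it; these are other samples of the same pool. With 1 sample each, genotype, mouse, blood draw and hashtag cannot be told apart.

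The hashtags are shown because they alone assign a cell to a sample. They are antibody-borne barcodes read beside the RNA, and differ at 11 of their 15 positions.
Hom hashtag: gagtctgccagtatc
Het hashtag: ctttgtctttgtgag

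Circulating white cells come from common bone marrow progenitors but carry separate RNA programmes. Neutrophils are short-lived phagocytes filled with granule proteins, B and T lymphocytes carry antigen receptors, NK cells kill by releasing granzymes and perforin, and monocytes either enter tissue (Ly6C-high) or patrol vessel walls (Ly6C-low). Signals that reach every blood cell, such as interferons, act through STAT and IRF transcription factors, and inhibitors such as SOCS3 switch cytokine signals off again.

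The authors' clusters 0 to 3 were compared. In cluster 0 all 8 neutrophil markers were at least 2-fold above the other clusters, in cluster 1 all 7 B cell markers, and in cluster 3 all 5 general monocyte markers. Cluster 2 raised all 6 T cell and all 7 NK cell markers, so it is called T and NK cell-like. There were 377 Hom and 795 Het neutrophil-like cells, 807 and 436 B cell-like cells, 336 and 143 T and NK cell-like cells, and 182 and 175 monocyte-like cells. The neutrophil-like share of a sample was thus 19.1% in Hom (exact Clopper-Pearson 95% interval 17.4 to 20.9) and 46.3% in Het blood (44.0 to 48.7). All intervals given here cover counting error only. Median raw depths were close within a cell type, at 2827 and 3036 UMIs in neutrophil-like cells, 4865 and 4677.5 in B cell-like cells, 7764.5 and 7760 in T and NK cell-like cells, and 12085.5 and 10772 in monocyte-like cells, each with Hom first. The other 4 clusters were not compared.

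Levels are corrected counts per 10000 corrected counts of the cluster in that sample, and ratios are log2 of Hom over Het with a pseudocount of 1. A gene was measured in a cluster when it had at least 100 corrected counts there over both samples.

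Cx3cr1 and Ccr2, the receptors whose genotypes the series names, were read first. Cx3cr1, the fractalkine receptor (chromosome 9, 120048683 to 120068296, mm10), summed to 39 corrected counts in Hom and 284 in Het monocyte-like cells. Its level was 0.426 in Hom and 3.18 in Het, a log2 ratio of -2.87, and a count was found in 18.7% of Hom and 72.0% of Het cells. After each cell was thinned to 1000 corrected counts, 3.85% of Hom and 24.6% of Het monocyte-like cells kept one, beside 2.85% and 3.90% of B cell-like cells, which do not use the receptor. The Hom monocyte share was therefore near the level of B cells. In blood of metastasis-bearing mice the log2 ratio was -2.97. Ccr2, the receptor that brings Ly6C-high monocytes into blood and tissue (chromosome 9, 124101918 to 124109140), had a level of 12.6 in Hom and 12.2 in Het monocyte-like cells. EGFP, a green reporter in the table, summed to 46 corrected counts in Hom and 22 in Het monocyte-like cells. The red reporter RFP summed to at most 7 counts in any cluster of either sample.

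No gene was at least 1.5-fold apart in the same direction in all 4 cell types. This was asked of the 1750 genes measured in every cluster, and the share was 0% higher and 0% lower. Among these genes 215 were past 1.5-fold in either direction in neutrophil-like cells (12.3%), 7 in B cell-like cells (0.4%), 60 in T and NK cell-like cells (3.43%) and 68 in monocyte-like cells (3.89%). Past the fold in none of the clusters were 1442 genes. With only 7 genes past the fold, the B cell-like cluster set the limit for what could be shared. The distribution of ratios was widest in neutrophil-like cells.

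**Figure D1:**
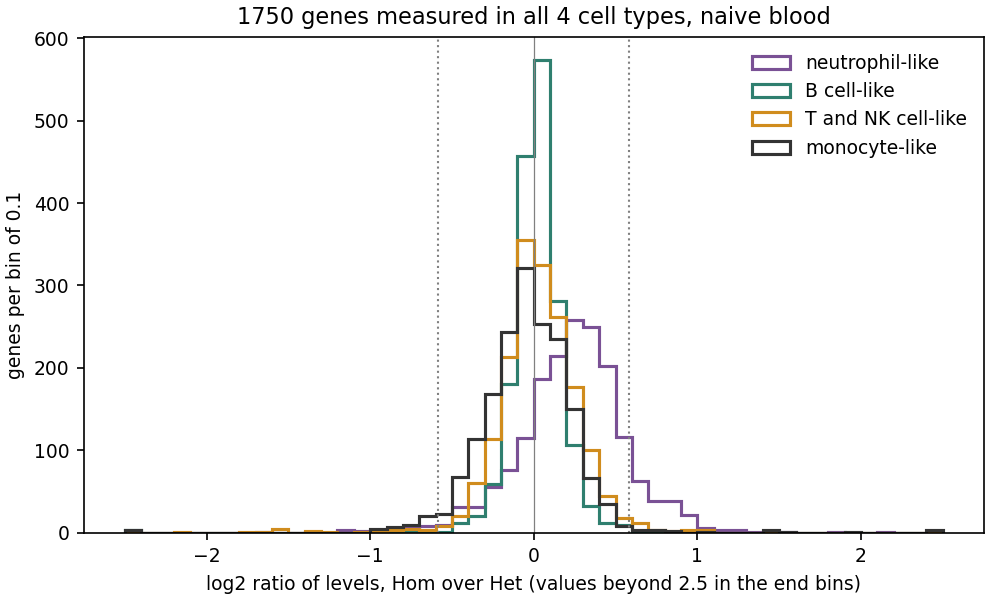
Log2 ratio of levels (Hom over Het, x axis) of the 1750 genes measured in all 4 cell types of naive blood, as the number of genes per bin of 0.1 (y axis), with dotted lines at 1.5-fold. B cell-like ratios lie closest to 0, and neutrophil-like ratios are the widest and are displaced to the right.

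At a looser ratio of 5 to 4, 2 genes were lower in Hom in all 4 cell types (0.114% of 1750), and 0 were higher (0%). By direction alone, 208 genes were higher in all 4 (11.9%) and 48 lower (2.74%). Irf9, the DNA-binding part of the factor that type I interferon activates, had log2 ratios of -0.45, -0.44, -0.36 and -0.44 in neutrophil-like, B cell-like, T and NK cell-like and monocyte-like cells. In neutrophil-like cells its level was 1.02 in Hom and 1.41 in Het, and in B cell-like cells 0.678 in Hom and 0.917 in Het. Slfn5, a Schlafen gene that interferon induces, had ratios of -0.79, -0.32, -0.75 and -0.36 in the same order. Its counts were 251 in Hom and 935 in Het neutrophil-like cells, and 282 in Hom and 352 in Het monocyte-like cells. Neither gene stayed past the ratio of 5 to 4 in every cell type under all settings. With all deposited cells the log2 ratio in monocyte-like cells was -0.26 for Irf9 and -0.25 for Slfn5, and without the top cell of each sample that of Slfn5 in B cell-like cells was -0.28. In metastasis-bearing blood neither gene repeated the pattern: the ratio of Irf9 was 0.47 in neutrophil-like and 0.42 in B cell-like cells, and that of Slfn5 0.63 in neutrophil-like cells.

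The closest to a 1.5-fold gene of all cell types was Socs3, the feedback inhibitor of JAK and STAT signalling (chromosome 11, 117966079 to 117970336). It was the only gene past 1.5-fold in the same direction in 3 clusters. Its level was 2.79 in Hom and 7.01 in Het neutrophil-like cells (log2 -1.33), 0.377 and 0.656 in T and NK cell-like cells (-0.81), and 0.524 and 1.04 in monocyte-like cells (-0.98). In B cell-like cells it was 0.275 in Hom and 0.240 in Het (0.18). A Socs3 count was found in 50.9% of Hom and 81.6% of Het neutrophil-like cells. Among monocyte-like cells whose antibody gate fitted the cluster, Socs3 summed to 37 counts in Hom and 31 in Het (-0.27), which is under the 100 counts of a measured gene. In metastasis-bearing blood the ratio was -0.25 in neutrophil-like and 0.34 in monocyte-like cells.

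The median of the interferon-induced genes was below 0 in all 4 cell types, but few members were past the fold and some went the other way. Of the type I interferon list, 16 of 26 measured members were lower in Hom neutrophil-like cells (6 of them past 1.5-fold, and 2 higher past it, where 5.78% of all genes were past it lower and 12.3% higher), with a median log2 of -0.35 beside 0.20 for all 3826 genes measured there. In B cell-like cells 15 of 19 members were lower (median -0.20), 1 of them past the fold (0.517% of all genes there). In T and NK cell-like cells 8 of 14 were lower (-0.22), 2 of them past the fold (1.66% of all genes). In monocyte-like cells 12 of 20 were lower (-0.08), and the 3 members past the fold were higher (2.3% of all genes there). Over all genes the medians of these cell types were 0.02, 0.01 and -0.04, so the monocyte-like list lay close to all genes. Members went opposite ways within a cell. Isg15, a ubiquitin-like protein, had a level of 2.71 in Hom and 3.61 in Het neutrophil-like cells, while Ifit3, which binds viral RNA, had 1.15 in Hom and 0.471 in Het. Ifit3 was also higher in Hom monocyte-like cells, at 1.28 against 0.605, although 17.6% of Hom and 19.4% of Het cells held a count. In metastasis-bearing blood the list ran the other way in neutrophil-like cells, with 24 of 25 members higher in Hom, 12 past 1.5-fold, against 2.38% of all genes there, and a median of 0.58.

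Genes higher in Hom in more than one cell type included MHC class I genes, whose products show cell-internal peptides to killer T cells. H2-Q7, a non-classical class I gene (chromosome 17, 35439140 to 35443773), was among the 9 of 1750 genes past 1.5-fold higher in 2 clusters. Past 1.5-fold lower in 2 clusters were 11 of the 1750. Its level was 1.01 in Hom and 0.336 in Het neutrophil-like cells (log2 1.59), and 2.29 in Hom and 0.795 in Het monocyte-like cells (1.51). In B cell-like cells it was 3.46 in Hom and 2.31 in Het (0.58), just under the fold, and in T and NK cell-like cells 7.24 and 6.51 (0.15). H2-Q4 had ratios of 1.10, 0.34, -0.06 and 0.62 in the order of the clusters. The class I list was higher in 11 of 12 members in neutrophil-like cells (3 past 1.5-fold, median 0.49) and 12 of 13 in monocyte-like cells (3 past it, median 0.37). Over all genes the medians were 0.20 and -0.04, and 12.3% and 2.3% were past the fold higher. In metastasis-bearing blood the list's medians were 0.01 and -0.00, with 0 members past the fold in both cell types.

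**Figure D2:**
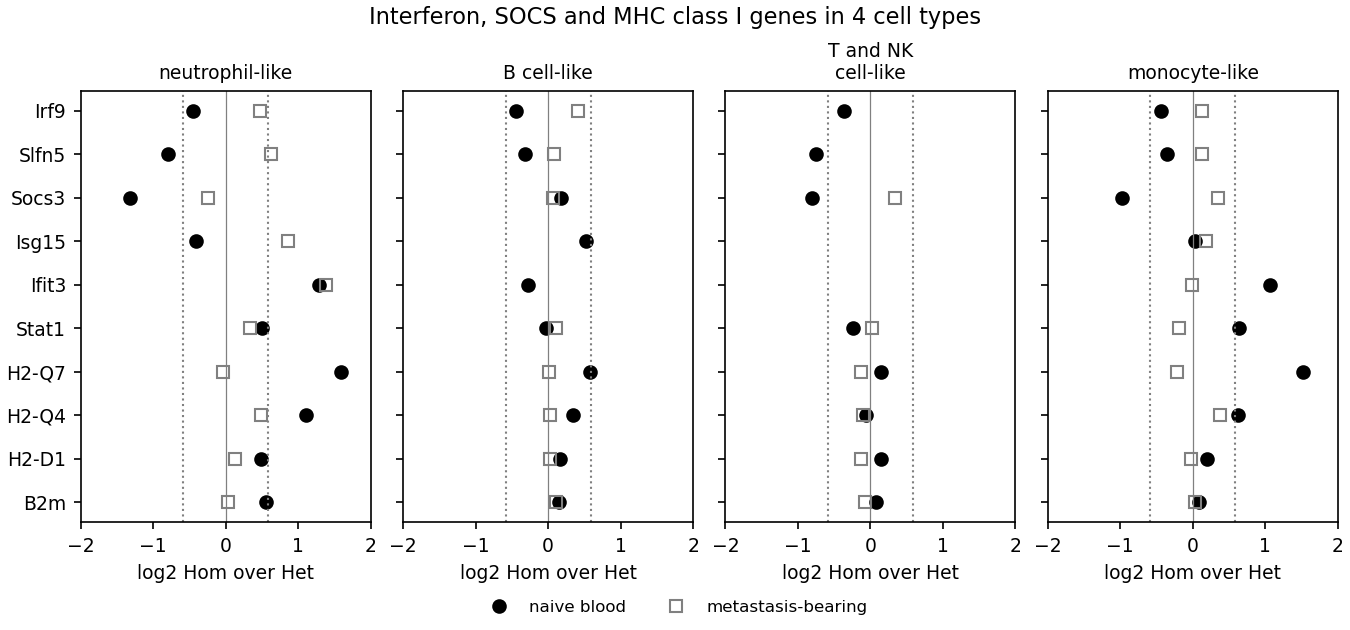
Log2 ratio of levels (Hom over Het, x axis) of interferon, SOCS and MHC class I genes in the 4 cell types, for naive blood (filled circles) and blood of metastasis-bearing mice (open squares), where the gene was measured; dotted lines mark 1.5-fold. Irf9 and Slfn5 lie left of 0 in all 4 panels of naive blood, Socs3 in 3, and H2-Q7 lies right of 0 in all 4.

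The promoter stretches below were picked from genes lower in Hom because they hold a motif. Socs3, Steap4 and Plscr1 were lower in neutrophil-like cells and Slfn5 in all 4 cell types. Most genes 2-fold lower in Hom neutrophil-like cells held neither motif, so the stretches do not stand for the lower genes as a group. Capitals mark TTCNNNGAA, the letters that STAT factors are known to bind, in the first 3, and GAAA, any 2 bases and GAAA, the core of the interferon response element, in the last. Sequences are RefSeq, GRCm38.p6, 5′ to 3′ on the gene's strand: Socs3 at chr11:117969482-117969550 (minus), Steap4 at chr5:7960326-7960394 (plus), Plscr1 at chr9:92250074-92250142 (plus) and Slfn5 at chr11:82951917-82951986 (plus).
Socs3: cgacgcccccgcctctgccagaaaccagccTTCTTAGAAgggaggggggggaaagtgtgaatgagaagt
Steap4: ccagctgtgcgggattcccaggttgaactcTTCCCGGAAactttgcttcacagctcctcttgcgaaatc
Plscr1: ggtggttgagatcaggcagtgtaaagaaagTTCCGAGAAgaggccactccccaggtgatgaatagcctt
Slfn5: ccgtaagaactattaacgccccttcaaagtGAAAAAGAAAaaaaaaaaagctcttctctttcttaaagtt

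Both motifs were searched on both strands in windows from 250 bases before to 50 after the start of transcription. The Socs3 stretch lies 184 to 116 bases before the start used for its window, and inside the gene span given above. TTCNNNGAA reads the same on both strands, and 8.30% of all 32851 windows and 9.55% of the genes they belong to hold it. Among genes 2-fold lower in Hom neutrophil-like cells, 10 of the 66 with a promoter in the table held it (15.2%), among those 2-fold higher 4 of 50 (8%), and among all genes measured there 249 of 3042 (8.19%). The interferon response element core was in 3.44% of all windows, in 3 of the 66 genes 2-fold lower (4.55%), in 3 of the 50 genes 2-fold higher (6%) and in 5.26% of genes measured. These counts describe letters, not binding.

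Neutrophil-like cells had the most genes past the fold. Of 3826 measured genes, 469 were at least 1.5-fold higher in Hom (12.3%) and 221 at least 1.5-fold lower (5.78%). The median gene was 0.20 higher on the log2 scale, and with ratios centred on it the split turned to 205 higher and 377 lower. At 2-fold, 68 genes were higher (1.78%) and 79 lower (2.06%), together 3.84%. The most abundant genes, S100a8 and S100a9 (the calprotectin subunits), were lower in Hom, at 773 and 991 for S100a8 and 916 and 1313 for S100a9. Their part in the rightward displacement of other genes was not tested.

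The following genes were lower in Hom neutrophil-like cells. Lrg1, a secreted leucine-rich glycoprotein kept in neutrophil granules, summed to 1010 counts in Hom and 7343 in Het, with a level of 6.24 in Hom and 21.1 in Het (log2 -1.76). It was found in 67.1% of Hom and 94.5% of Het cells. Steap4, a metalloreductase that inflammatory cytokines induce, had a level of 0.630 in Hom and 2.92 in Het (-2.20). After thinning to 1000 corrected counts, Steap4 was found in 3.45% of Hom and 18.1% of Het neutrophil-like cells, beside 0.372% and 0.229% of B cell-like cells. Both samples of neutrophil-like cells were thus above the B cell level, and Het the more so.

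Acod1, the enzyme that makes itaconate, was at 0.228 in Hom and 1.38 in Het (-2.56), with a count in 6.10% of Hom and 28.9% of Het cells. Plscr1, an interferon-induced phospholipid scramblase, was at 0.105 and 0.675 (-2.61). Igfbp6, a binding protein of insulin-like growth factors, was at 0.259 in Hom and 1.35 in Het (-2.35). Tgm1, a protein cross-linking enzyme, and Entpd3, an enzyme that breaks down extracellular nucleotides, had the lowest counts of this group, 6 against 96 (-2.69) and 9 against 147 (-2.78). Wfdc17, a small secreted protein, was the most abundant of them, at 11.95 in Hom and 36.1 in Het (-1.59). Lcn2, the iron-scavenging granule protein lipocalin 2, had 11.3 in Hom and 25.1 in Het (-1.16). The granule list as a whole was mixed, with 4 members higher and 6 lower (0 and 3 past 1.5-fold) and a median of -0.21.

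Genes higher in Hom neutrophil-like cells were mostly of low level. Itgb7, the integrin beta 7 subunit, was at 0.580 in Hom and 0.129 in Het (2.15). Ptgs2, the prostaglandin synthase COX-2, had 369 counts in Hom and 260 in Het, at levels of 2.28 and 0.747 (1.61). Nr4a1, a nuclear receptor of the immediate early class, was at 0.537 in Hom and 0.175 in Het (1.61), and G0s2, an inhibitor of fat breakdown, at 1.91 and 0.747 (1.36). They were also found in a larger share of Hom cells, such as 24.1% of Hom and 9.69% of Het cells for Ptgs2. Iglc1, an antibody light chain, was at 1.84, but cells in the neutrophil antibody gate had 42 counts in Hom and 85 in Het (0.04), and 1 Hom cell held 48.4% of its counts.

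**Figure D3:**
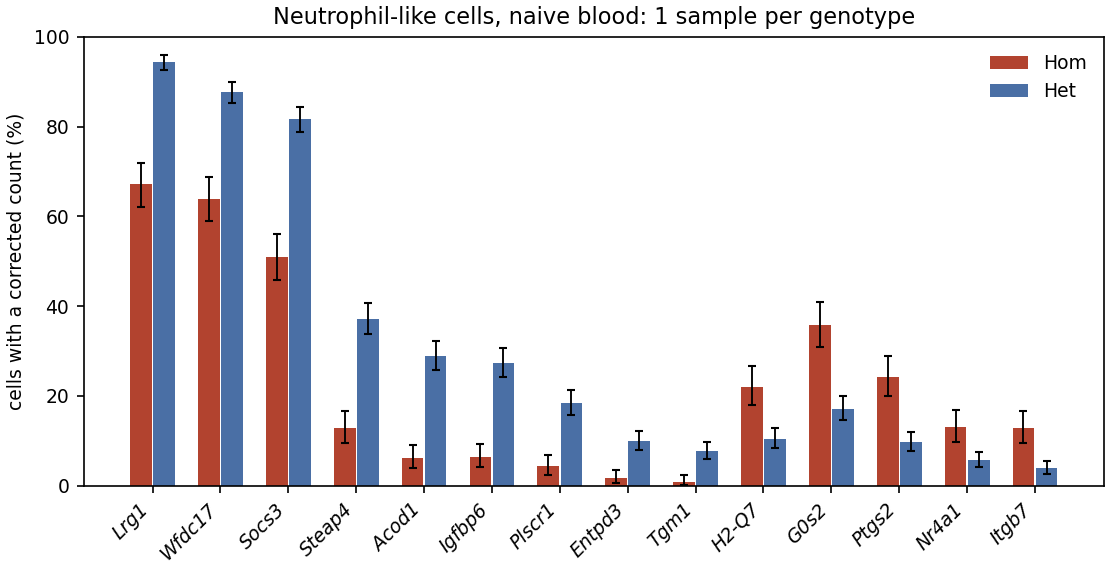
Share of neutrophil-like cells with a corrected count (y axis, percent) in Hom (red, left) and Het (blue, right) naive blood, 1 sample each; error bars are exact Clopper-Pearson 95% intervals and cover counting error only. Lrg1 to Tgm1 were found in fewer Hom cells and H2-Q7 to Itgb7 in more, at median raw depths of 2827 and 3036 UMIs.

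Genes for ribosomal proteins were higher in 87 of 88 measured members in Hom neutrophil-like cells (3 past 1.5-fold), with a median of 0.37 beside 0.20 for all genes. They were higher in 83 of 85 in monocyte-like cells (median 0.17, 0 past the fold) and lower in 76 of 87 in T and NK cell-like cells (median -0.05). Hence no direction held across cell types.

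In metastasis-bearing blood the neutrophil genes were past the fold in the same direction about as often as all genes were. The genes lower in naive blood were past it the other way more often than all genes. There 2.38% of 4622 measured genes were 1.5-fold higher in Hom and 1.88% lower. Of the 221 genes lower in naive Hom neutrophil-like cells, 215 were measured there, of which 3 were again past 1.5-fold lower (1.40%) and 22 past it the other way. Among all 3796 genes measured in both comparisons, 1.42% were past 1.5-fold lower in metastasis-bearing Hom blood and 81 (2.13%) past it higher. Of the 215 genes, 36.3% kept their direction, beside 45.4% of all genes. Of the genes higher in naive Hom, 462 were measured and 11 were again past the fold (2.38%), beside 2.13% of all. Another 16 of the 462 were past it the other way, beside 54 of all 3796 genes (1.42%). Steap4 was at 2.32 in metastasis-bearing Hom and 0.564 in metastasis-bearing Het neutrophil-like cells, and Wfdc17 at 76.8 and 42.7. The Hom value of both was thus the higher one there, and the lower one in naive blood.

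By a stricter rule, 10 of the 1750 genes belonged to a single cell type (0.571%), being 2-fold apart in one cluster and under a ratio of 5 to 4 in the other 3. Of these, 9 were of neutrophil-like cells (0.514%), and the exception was Retnlg of monocyte-like cells (0.0571%). Nop10, a small protein of the ribonucleoproteins that modify ribosomal RNA, had 75 counts in Hom and 67 in Het neutrophil-like cells, at levels of 0.463 and 0.193 (1.26). Pcbp1, an RNA-binding protein, was at 1.33 and 0.592 (1.17), Ccdc88c at 0.827 and 0.394 (1.07), and Smpdl3a, a phosphodiesterase related to acid sphingomyelinase, at 0.519 and 1.18 (-1.18). Genes measured in one cluster alone cannot be shared by this rule. Of 480 such genes in neutrophil-like cells, 20 were 2-fold higher (4.17%) and 46 lower (9.58%), of 129 in T and NK cell-like cells 14 were higher (10.9%) and 0 lower (0%), of 123 in monocyte-like cells 4 were higher and 4 lower (3.25% each), and of 1777 in B cell-like cells 3 were higher (0.169%) and 0 lower (0%).

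**Figure D4:**
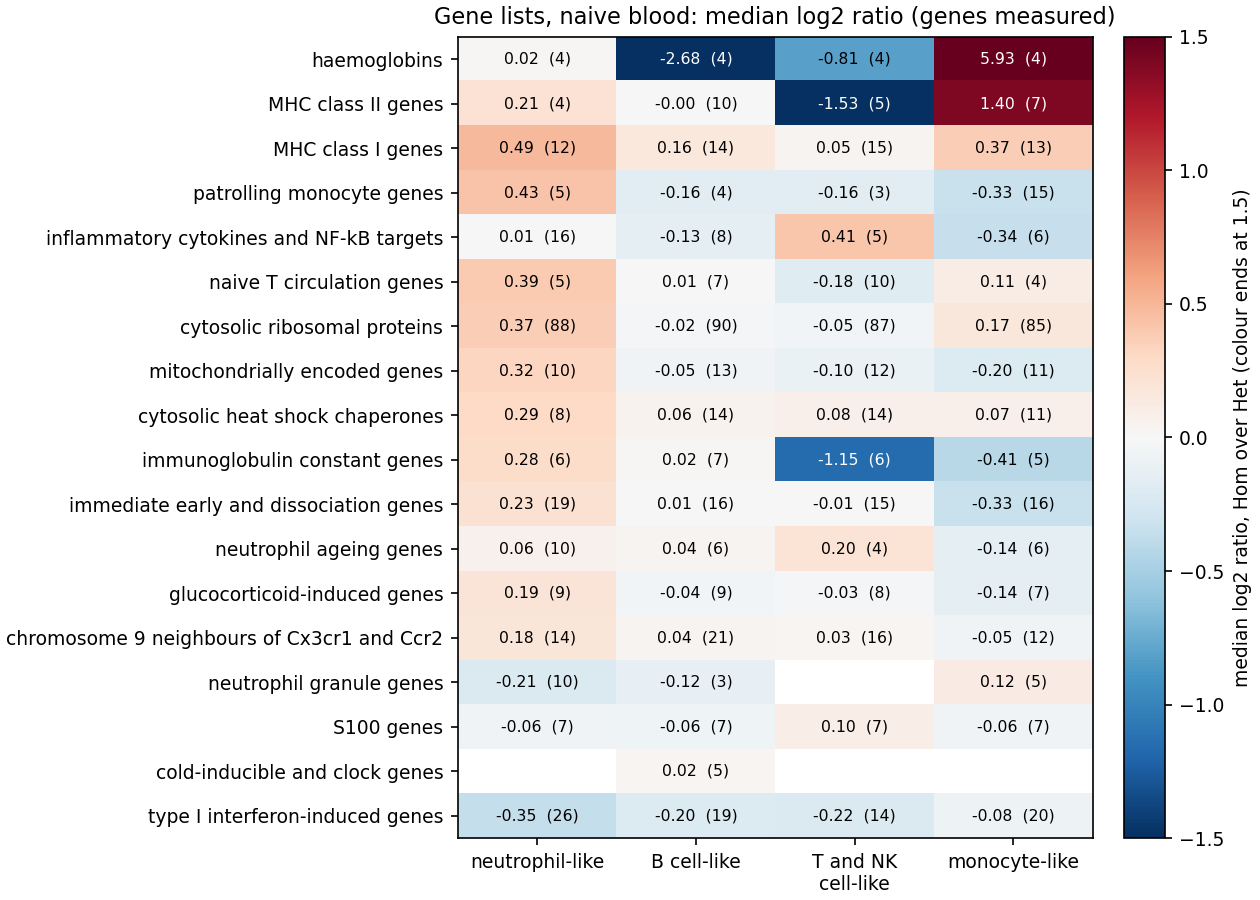
Median log2 ratio of levels (Hom over Het, colour and number) of each gene list in each cell type of naive blood, with the number of genes measured in parentheses; lists with fewer than 3 measured genes in a cell type are blank. No list has a median of the same sign and past 0.3 in all 4 cell types, and the haemoglobin and MHC class II lists change sign between cell types.

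B cell-like cells had the smallest share of genes past 1.5-fold. Their corrected counts summed to 3891736 in Hom and 2082446 in Het, against 1619715 and 3480174 in neutrophil-like cells. The sums were 1724890 and 732158 in T and NK cell-like cells, and 916026 and 892578 in monocyte-like cells. Median corrected counts per cell were 4315 in Hom and 4360 in Het neutrophil-like cells, above their raw depths of 2827 and 3036. In monocyte-like cells they were 5025.5 and 5232, under raw depths of 12085.5 and 10772. A limit in corrected counts thus stands for fewer raw UMIs in neutrophil-like cells. The part of these totals and of raw depth in the ranking of cell types was not tested. Of 5991 measured genes, 62 were 1.5-fold higher in Hom (1.03%) and 31 lower (0.517%), a split of 51 and 39 once centred on the median. At 2-fold, 6 were higher (0.1%) and 4 lower (0.0668%). The genes that define the cell type were level: Cd79a, a part of the B cell receptor, was at 38.8 in Hom and 38.9 in Het, and Ighm, the IgM heavy chain, at 42.1 and 41.6. Igha, the IgA heavy chain, and Jchain, which joins IgA units, had the largest ratios (3.98 and 4.28), but both came from 1 Hom cell. That cell held 1374 of the 1418 Hom counts of Igha and 280 of the 289 of Jchain, and without the top cell of each sample the ratios were -0.05 and -0.39. The 4 genes 2-fold lower in Hom were the haemoglobins, and 1 Het cell held 87.6% of the Het counts of Hba-a1. The directions were the same in metastasis-bearing blood, with log2 ratios of 4.21 for Igha and -3.51 for Hba-a1, and levels of 0.358 in Hom and 0.0388 in Het for Jchain, where the counts of single cells were not read.

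Ccr1, a receptor for inflammatory chemokines (chromosome 9, 123962126 to 123968692), was higher in Hom B cell-like cells of both naive and metastasis-bearing blood. In naive blood it was at 0.653 in Hom and 0.312 in Het B cell-like cells (log2 1.05), found in 20.1% of Hom and 11.5% of Het cells. In metastasis-bearing blood it was at 0.853 in Hom and 0.302 in Het (1.49), where 1.64% of B cell-like genes were past 1.5-fold higher. The ratio of 2010315B03Rik on the same chromosome was 0.74 in naive and 0.03 in metastasis-bearing blood.

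In T and NK cell-like cells, 100 of 3484 measured genes were 1.5-fold higher in Hom (2.87%) and 58 lower (1.66%), together 4.54%. At 2-fold, 21 were higher (0.603%) and 14 lower (0.402%). Genes of NK cells were among the highest. All 7 NK cell markers were past 1.5-fold higher, with a median of 1.22. Gzma, a granzyme, was at 31.4 in Hom and 13.5 in Het (1.22), Prf1, perforin, at 2.91 and 1.22, and Klre1, an NK receptor subunit, at 2.83 and 0.983 (1.51). Klra7 and Klra9, receptors of the Ly49 family that read MHC class I, had ratios of 1.70 and 1.68. T cell markers were near level, with 0 of 6 past the fold and a median of -0.12.

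The makeup of the cluster moved with this result. The authors' NK gate held 39 of 336 Hom cells (11.6%) and 9 of 143 Het cells (6.29%), and cells that were CD3- but outside the NK gate numbered 64 in Hom (19.0%) and 2 in Het (1.40%). Within the NK gate some levels were close and others were not. Gzma was at 176 in Hom and 165 in Het, Klra8 at 9.10 and 10.0, Ncr1 at 11.6 and 12.99, and Prf1 at 15.4 and 13.2. Klra7 was at 6.16 in Hom and 3.83 in Het, Klra9 at 8.95 and 5.96, and Irf8, a transcription factor, at 6.70 and 3.83. These levels rest on 9 Het cells. In metastasis-bearing blood the 7 NK markers had a median of -0.46.

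Genes lower in Hom in the same cluster included B cell and antigen-presentation genes. All 5 measured MHC class II genes were past 1.5-fold lower (median -1.53), as were all 5 measured B cell markers (median -0.90). H2-Aa was at 1.22 in Hom and 3.54 in Het, and Cd79a at 0.991 and 2.55. Beside this, 20 of 336 Hom cells (5.95%) and 23 of 143 Het cells (16.1%) were B220+ by antibody. Among cells gated as T or NK, the summed level of the class II list was 2.06 in Hom and 3.00 in Het, against 8.71 and 23.8 in the whole cluster. The summed level of the B cell markers was 2.18 in Hom and 2.58 in Het, against 5.38 and 10.4. Most of the difference thus lay in cells outside those gates. Within the gates H2-Aa summed to 32 Hom and 29 Het counts and Cd79a to 10 and 11, fewer than the 100 of a measured gene. Also past 1.5-fold lower in the whole cluster were 2 of 3 measured neutrophil markers and 3 of 4 haemoglobins. The summed level of the haemoglobins was 17.6 in Hom and 27.0 in Het in the whole cluster. Within the T and NK gates it went the other way, at 23.6 in Hom and 0.678 in Het. The lower genes of this cluster recurred in metastasis-bearing blood, where 15 of 33 measured were again past 1.5-fold lower (45.5%), beside 1.61% of all genes measured in both.

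Monocyte-like cells had 63 of 2742 measured genes 1.5-fold higher in Hom (2.3%) and 117 lower (4.27%), together 6.56%. At 2-fold, 20 were higher (0.729%) and 22 lower (0.802%). MHC class II genes were higher as a group. These genes display peptides to CD4 T cells. All 7 measured members were past 1.5-fold higher, with a median log2 of 1.40. Of 6 dendritic cell markers only 2 were measured, Cd209a and Bst2, both past the fold higher. Xcr1 had 1 count in each sample and Clec9a 7 in Hom and 0 in Het. In metastasis-bearing blood 3 of these markers were measured, 1 higher in Hom and 2 past the fold lower (median -0.60). In naive blood the summed level of the list was 8.91 in Hom and 3.82 in Het, or 6.86 and 4.67 within the monocyte gates. The part of dendritic cell markers in the class II result was not tested. H2-Aa was at 18.9 in Hom and 7.14 in Het (1.40), H2-Eb1 at 12.8 and 4.55 (1.49), and Cd74, the chain that guides class II molecules, at 51.8 and 25.3 (1.03). Ciita, the factor that switches class II genes on, was at 0.972 and 0.359 (1.41). Cd209a, a lectin of monocyte-derived and dendritic cells, was at 2.67 in Hom and 0.504 in Het (2.38), with a count in 20.3% of Hom and 5.14% of Het cells. The same class II genes were lower in Hom T and NK cell-like cells and level in B cell-like cells (median -0.00), so this difference had no common direction.

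The antibody gates split these cells further. The Ly6C-high gate held 101 Hom and 72 Het monocyte-like cells and the Ly6C-low gate 39 and 25. H2-Aa was higher in Hom in both, at 8.62 against 1.16 in the Ly6C-high gate and 32.3 against 20.3 in the Ly6C-low gate. In the Ly6C-high gate an H2-Aa count was found in 22 of 101 Hom cells (21.8%, interval 14.2 to 31.1) and 11 of 72 Het cells (15.3%, 7.88 to 25.7). The 441 Hom counts of H2-Aa in this gate thus lay in 22 cells, and the 43 Het counts in 11 cells. Cx3cr1 was lower in Hom in both, at 0.332 against 2.21 and 0.667 against 5.01. Ccr2 was at 17.4 in Hom and 18.6 in Het cells of the Ly6C-high gate. In metastasis-bearing blood the class II list had 0 of 7 members higher in Hom, and its median was -0.29.

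Neutrophil genes were lower in Hom monocyte-like cells, but this followed cells outside the monocyte gates. All 5 measured neutrophil markers were past 1.5-fold lower (median -2.43), and their summed level was 11.98 in Hom and 62.4 in Het. S100a8 was at 4.18 in Hom and 25.5 in Het (-2.60). Among cells in a monocyte gate the summed level was 4.44 in Hom and 5.20 in Het, and the ratio of S100a8 was -0.36. The CD3+ gate held 9 of 182 Hom (4.95%) and 51 of 175 Het monocyte-like cells (29.1%), in which S100a8 was at 0.222 in Hom and 61.7 in Het. Of the 51 Het cells, 49 were neither CD4+ nor CD8+. Retnlg, the neutrophil resistin-like protein named above by the single-cluster rule, was at 0.371 in Hom and 2.32 in Het (-2.61) and summed to 5 Hom and 10 Het counts within the monocyte gates, too few for a ratio there. Il1b, which encodes interleukin 1 beta, was at 1.15 and 3.81 (-1.72), and -0.90 within the gates.

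**Figure D5:**
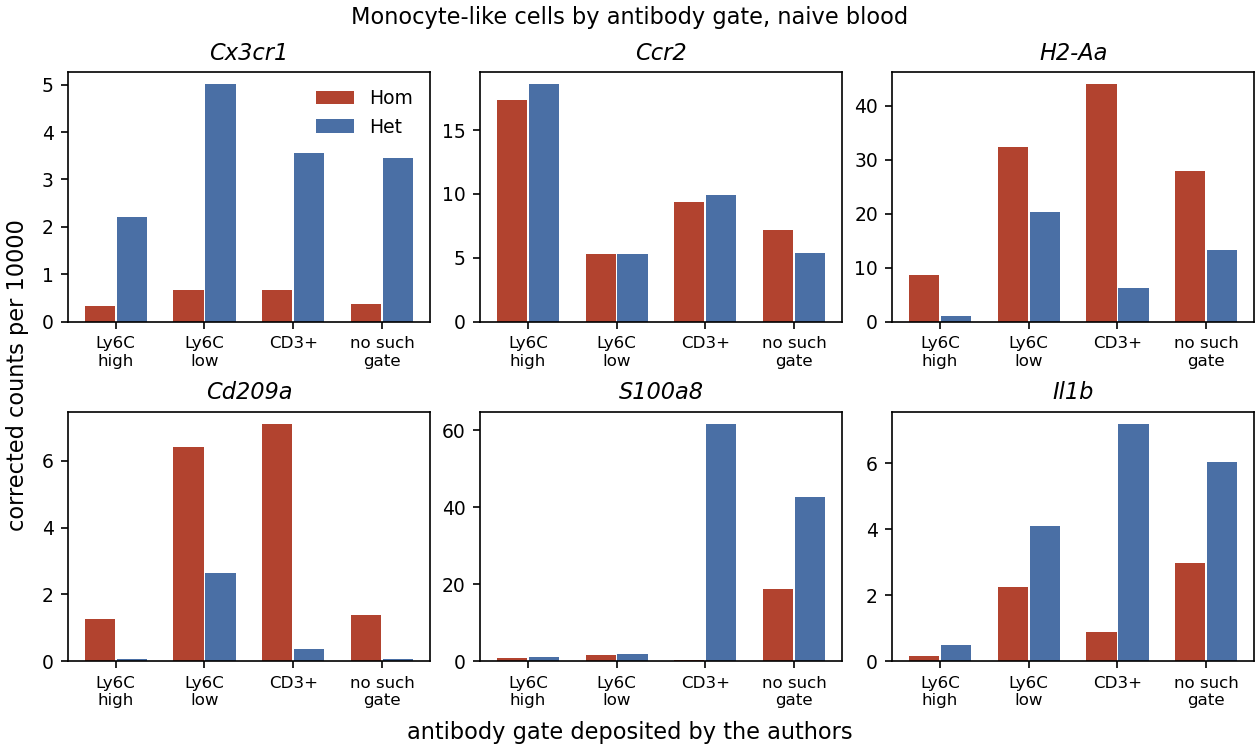
Levels (corrected counts per 10000, y axis) of 6 genes in monocyte-like cells of Hom (red, left) and Het (blue, right) naive blood, by the authors' antibody gate (x axis), with 101 and 72 cells in the Ly6C-high, 39 and 25 in the Ly6C-low, 9 and 51 in the CD3+ gate and 33 and 27 in no such gate. Cx3cr1 is lower and H2-Aa higher in Hom in every gate, while the difference of S100a8 lies in the CD3+ and ungated cells.

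Several other genes were lower in Hom monocyte-like cells with and without the gates. Gda, guanine deaminase, was at 1.42 in Hom and 4.32 in Het (-1.60, and -1.47 within the gates), found in 40.1% of Hom and 78.9% of Het cells. Cd244, a receptor of the SLAM family, was at 0.764 and 1.93 (-1.32, and -1.37 within the gates). Vcan, the matrix proteoglycan versican of Ly6C-high monocytes, was at 0.677 and 1.52 (-1.16, and -1.43 within the gates). Vcan does not stand for the Ly6C-high monocyte markers, of which 4 of 6 were higher in Hom and 2 lower. Of these markers 1 was past 1.5-fold higher and 1 lower, with a median of 0.14 (-0.09 within the gates). None of Gda, Cd244 and Vcan was past 1.5-fold in metastasis-bearing blood, where the ratios were -0.18, 0.19 and -0.30. Of the genes lower in naive Hom monocyte-like cells, 117 were measured there and 18 were again past the fold (15.4%), beside 2.30% of all genes measured in both. All 6 neutrophil markers measured there were past the fold lower (median -1.02). Of the genes higher in naive Hom, 59 were measured there, 1 was again past the fold and 7 were past it the other way. Of all genes measured in both, 0.914% were past it higher and 2.30% lower.

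Patrolling monocyte genes were lower in Hom in all 15 measured members, 4 of them past 1.5-fold, with a median of -0.33 beside -0.04 for all genes. Within the monocyte gates the median was 0.09. Ear2, a ribonuclease of patrolling cells, was at 3.79 in Hom and 6.15 in Het (-0.70, and 0.16 within the gates), and Spn, the sialoprotein CD43, at 2.16 in both. Immediate early genes were also lower in all 16 measured members (4 past the fold, median -0.33, and -0.05 within the gates). The medians of both lists were thus near 0 once cells outside the monocyte gates were left out.

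Haemoglobins had the largest ratios of any gene in monocyte-like cells and rested on few cells. Hba-a1, a chain of red cell haemoglobin, had 795 counts in Hom and 6 in Het (6.79), of which 1 Hom cell held 84.2%. A count was found in 7.14% of Hom and 3.43% of Het cells. Its direction was the other in B cell-like cells (-2.44). Retnla, a resistin-like protein of alternatively activated macrophages, had 105 counts in Hom and 398 in Het (-1.95), of which single cells held 96.2% and 98.0%.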

How the data were processed

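Gene values are the natural log (ln) of 1 plus a count that the authors had corrected with SCTransform, as deposited for each table separately; Cell Ranger 3.1 and mm10 are named in the submitters' processing notes. Back-transformed values were whole to within 1.18e-11 and are called corrected counts; raw counts were not used here. The deposited hashtag and antibody totals, raw UMI counts, antibody gates and cluster numbers are the authors'. Filters on cells and the treatment of doublets are not given in the sources used here, and no doublet caller was run; barcodes found in several tables were left out, doublets within a hashtag were not, and cells of a gate unlike their cluster were left out as an alternative. Corrected counts were summed per cluster and sample in Python 3.11.15 with pandas 2.3.3. The values are not raw counts and each genotype is 1 sample, so no count model, p-value or SE was made; naming by 1.5-fold and 2-fold is a rule of size. The ratio and naming steps were run on simulated sums whose changes and counts lay above the naming limits. The simulation had no spread between cells or samples, so it cannot tell how reliable the genes named here are. Symbols were matched to RefSeq for 15113 of 16462 genes. The genotype comparison, 19 gene lists and marker lists were chosen with earlier results of these data known. Named genes are the targeted genes and reporters, the largest single-cluster ratios, the largest among genes measured in one cluster alone, and the most abundant list members. Irf9, Slfn5, Socs3, H2-Q7, H2-Q4, Steap4, Lrg1, Acod1, Plscr1, Igfbp6, Wfdc17, Itgb7, Nr4a1, Gzma, Prf1, Klre1, Klra8, Ncr1, Irf8, Cd79a, Ciita, Gda, Cd244, Vcan, 2010315B03Rik, Isg15 and Ifit3 were chosen after their values were seen. Clusters of metastasis-bearing blood were matched by markers, with its T and NK clusters joined.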

Additional observations from a re-analysis of the deposited data

Results flagged for a closer look

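Of the genes named by rule, 6 in monocyte-like cells were past 2-fold in one direction in naive blood and past 2-fold in the other in metastasis-bearing blood, and the difference between the comparisons was not tested. The log2 ratios, Hom over Het, of the haemoglobins in naive and metastasis-bearing blood were 6.79 and -2.33 for Hba-a1, 6.08 and -2.46 for Hba-a2, 5.78 and -2.86 for Hbb-bs, and 4.70 and -4.66 for Hbb-bt. Iglc1, an antibody light chain, had 1.91 and -1.09. Retnla had -1.95 and 7.09, with levels of 10.4 in Hom and 0.0703 in Het monocyte-like cells of metastasis-bearing mice.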

How the results depend on the processing

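No gene was 1.5-fold higher, and none 1.5-fold lower, in all 4 cell types under any setting that kept this fold, including all deposited cells, a hashtag limit of 0.8, filters at 50 and 200 counts and cells in fitting gates; at a ratio of 5 to 4, 2 genes were lower, and neither kept that ratio in every setting. The single-cluster genes numbered 10, but 63 with at least 50 corrected counts, 3 with at least 200, 5 centred on the cluster median, 1 with cells thinned to 1000 corrected counts, 184 with 1.5-fold in one cluster, and 1 with 3-fold. Igha and Jchain in B cell-like cells turned to -0.0048 and -0.3226 in fitting gates and to -0.0541 and -0.3876 without the top cell. These last 2 settings were chosen after seeing the data. Under 11 settings, genes past 1.5-fold higher and lower numbered 123 to 891 and 91 to 377 in neutrophil-like, 14 to 187 and 8 to 143 in B cell-like, 27 to 274 and 15 to 177 in T and NK cell-like, and 14 to 164 and 22 to 328 in monocyte-like cells. The lowest counts came with thinning or a filter at 200 counts and the highest with a filter at 50, except 377, which came with centring. In fitting gates they were 42 and 21 in T and NK cell-like and 38 and 49 in monocyte-like cells. The ratio ran from -2.94 to -2.05 for Cx3cr1 and 0.72 to 1.47 for H2-Aa in monocyte-like cells, and from -2.40 to -1.86 for Steap4 in neutrophil-like cells. No paired analysis was possible because each genotype is 1 sample.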
